A study of Mus musculus with 2 samples.

Results

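The xenobiotic and metabolic receptors described here are 8 transcription factors, chosen by symbol, out of 20313 genes in the mRNA table of hepatocytes from oil- and CCl4-injected mice. They are the pregnane X receptor PXR (Nr1i2), the constitutive androstane receptor CAR (Nr1i3), the aryl hydrocarbon receptor (Ahr), its partner Arnt, the retinoid X receptor alpha (Rxra), the liver X receptor alpha (Nr1h3), the thyroid hormone receptor beta (Thrb) and the glucocorticoid receptor (Nr3c1). Each was found through its RefSeq identifiers, and all 8 had at least 1 RPKM in both libraries. RPKM is the number of reads per kilobase of transcript, scaled to the total reads of the library.

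RNA-seq was performed on primary hepatocytes of wild-type C57BL/6J mice, with 1 library from mice given intraperitoneal oil and 1 library from mice given CCl4, a solvent that injures the hepatocytes that metabolize it. The CCl4 mice received a 20% solution in mineral oil at 2.5 ml CCl4 per kilogram, 2 times per week. The labels give a course of 8 weeks and the methods 4 weeks, and according to the methods the mice were male and 5 weeks old when obtained. Hepatocytes were released by pronase and collagenase perfusion and taken from a density gradient, so they were enriched rather than sorted, and how many mice were pooled for a library is not given in the sources used here. The RPKM steps of short genes gave 57992355 reads for the oil library and 64655340 for the CCl4 library. With 1 library per condition, no difference below has a replicate check and none was tested. The intervals given cover the counting of reads only. They rest on lower bounds of the reads, so full read numbers could make them narrower.

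Nuclear receptors are transcription factors that are switched by small lipophilic ligands. PXR and CAR sense drugs, toxins and bile acids and drive the cytochrome P450 and conjugation genes of the liver, LXR alpha senses oxysterols, and Thrb and Nr3c1 carry the signals of thyroid hormone and glucocorticoids. PXR, CAR, LXR alpha and Thrb bind DNA as heterodimers with a retinoid X receptor, whereas the glucocorticoid receptor acts mainly without it. AhR is not a nuclear receptor but a ligand-activated protein of the bHLH-PAS family, which leaves a complex with Hsp90 when a ligand binds and pairs with Arnt in the nucleus.

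In the RPKM as deposited, the drug sensors and the thyroid hormone receptor beta were lower in the CCl4 library. Their shared partner Rxra and LXR alpha stayed close to their oil levels on that scale. With scaling to the median gene Rxra and LXR alpha were lower too, at log2 fold changes of -0.50 and -0.31. With scaling to hepatocyte markers none of the 8 receptors was lower, as given further on. Nr1i2 measured 20.5 RPKM in oil against 10.6 RPKM in CCl4. Nr1i3 was at 18.9 RPKM in oil and 9.59 RPKM in CCl4. Thrb was the least abundant of the 8 in the CCl4 library and went from 4.13 to 1.92 RPKM. These 3 genes were thus lower by 48.1%, 49.2% and 53.5% in CCl4.

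Fold changes are given on a log2 scale as CCl4 relative to oil, after 0.1 RPKM was added to either value. They were -0.94 for Nr1i2, -0.97 for Nr1i3 and -1.07 for Thrb. Read numbers recovered from the RPKM steps of the tables, which are lower bounds, were at least 2895 and 1674 reads for Nr1i2, at least 1432 and 811 for Nr1i3, and at least 623 and 323 for Thrb, in oil and CCl4. With these lower bounds, counting error alone places the log2 ratio of the reads between -1.03 and -0.86 for Nr1i2, between -1.10 and -0.85 for Nr1i3 and between -1.30 and -0.91 for Thrb (95% exact Clopper-Pearson intervals). Full read numbers would give intervals of the same width or narrower. As computed, each interval reaches across a change of 1 on the log2 scale and none comes near 0.

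**Figure D1:**
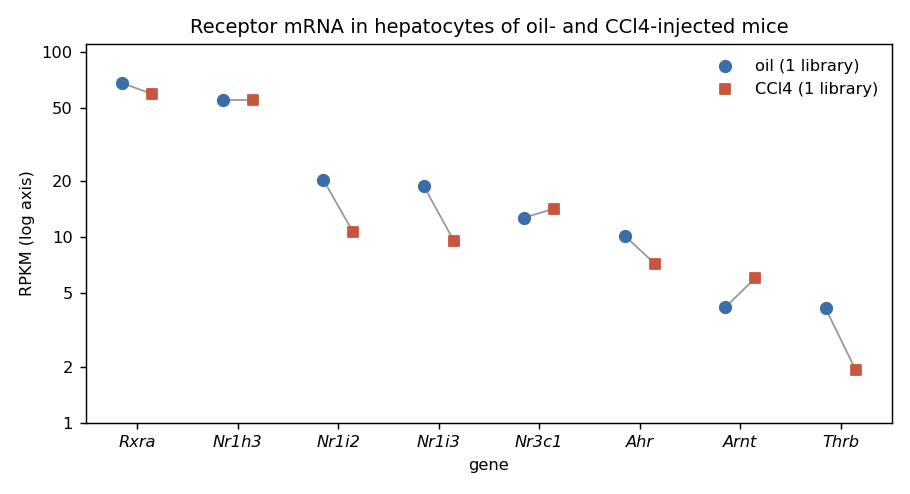
RPKM of the 8 receptors (log axis) in the oil library (circles) and the CCl4 library (squares), 1 library each, in order of the oil level. The lines of Nr1i2, Nr1i3 and Thrb slope down by a like step, Rxra and Nr1h3 stay at the top in both libraries, and Arnt is the gene that is highest in CCl4 relative to oil.

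A log2 change of at least 1 was used as the line for a called gene. Of the 8 receptors, Thrb alone was past it toward lower values and 0 toward higher values. Thrb was no longer past it with a pseudocount of 1 RPKM (-0.81), and a filter at a mean of 5 RPKM left it out. Nr1i3 and Nr1i2 lay just short of the line. Of the 10686 genes with at least 1 RPKM in both libraries, 5.48% were lower by this rule and 14.3% higher. In the distribution of all these genes, 4.91% had a lower log2 fold change than Thrb, 5.89% a lower one than Nr1i3 and 6.25% a lower one than Nr1i2. The median gene was higher in CCl4 by 0.30, and scaling the libraries to that gene placed Nr1i2 at -1.24, Nr1i3 at -1.27 and Thrb at -1.35. With this scaling 3 of the 8 receptors were called lower against 9.71% of all genes, and 0 were called higher against 7.99%.

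Their promoters are shown because these 3 genes differed between the libraries by a like amount, together with that of Arnt, which went the other way. Each line gives the 250 bases before a transcription start in the RefSeq promoter table (GRCm38.p6), read 5′ to 3′ on the strand of the gene. Capitals mark any match, on either strand, to the nuclear receptor half-site AGGTCA, the AhR-Arnt core GCGTG, the E-box CACGTG or the glucocorticoid receptor half-site TGTTCT. The annotated span of each of these genes reaches further upstream than the start used, so other starts exist that are not shown.
Nr1i2, chr16:38294825-38295074, minus strand: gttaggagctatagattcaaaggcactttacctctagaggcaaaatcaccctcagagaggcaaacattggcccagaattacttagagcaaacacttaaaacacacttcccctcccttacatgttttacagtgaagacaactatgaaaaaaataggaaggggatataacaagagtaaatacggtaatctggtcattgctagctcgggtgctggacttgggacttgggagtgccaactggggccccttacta
Nr1i3, chr1:171213720-171213969, plus strand: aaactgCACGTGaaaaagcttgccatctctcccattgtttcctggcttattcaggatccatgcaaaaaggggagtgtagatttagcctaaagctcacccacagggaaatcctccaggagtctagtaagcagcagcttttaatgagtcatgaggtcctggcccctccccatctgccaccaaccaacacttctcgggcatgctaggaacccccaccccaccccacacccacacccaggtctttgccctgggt
Thrb, upstream start, chr14:17660710-17660959, plus strand: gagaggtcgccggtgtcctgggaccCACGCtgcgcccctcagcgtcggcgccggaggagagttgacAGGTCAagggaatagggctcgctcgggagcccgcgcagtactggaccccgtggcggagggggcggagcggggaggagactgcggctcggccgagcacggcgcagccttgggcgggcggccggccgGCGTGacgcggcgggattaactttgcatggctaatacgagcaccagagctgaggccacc
Thrb, downstream start, chr14:17981394-17981643, plus strand: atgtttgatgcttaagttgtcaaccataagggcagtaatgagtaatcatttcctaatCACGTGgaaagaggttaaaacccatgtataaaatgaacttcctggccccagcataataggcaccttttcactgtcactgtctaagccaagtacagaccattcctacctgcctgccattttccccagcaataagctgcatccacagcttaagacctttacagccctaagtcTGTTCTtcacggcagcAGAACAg
Arnt, chr3:95434140-95434389, plus strand: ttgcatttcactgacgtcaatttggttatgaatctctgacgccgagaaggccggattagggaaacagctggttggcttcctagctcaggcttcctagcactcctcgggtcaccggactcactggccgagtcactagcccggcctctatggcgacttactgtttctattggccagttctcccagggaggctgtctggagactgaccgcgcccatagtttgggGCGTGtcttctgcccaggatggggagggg

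The window of Nr1i2 held none of the 4 motifs, and that of Nr1i3 held 1 E-box. Thrb has 2 annotated windows. The upstream window held 1 nuclear receptor half-site and 2 AhR-Arnt cores, and the downstream window held 1 E-box and 2 glucocorticoid half-sites. The Arnt window held 1 AhR-Arnt core. Rxra and Nr1h3 have 2 windows each, and among these only the downstream window of Rxra held a match, 2 nuclear receptor half-sites. No matches overlapped in the windows shown. For scale, the half-site AGGTCA was present in 14.0% of 32851 promoter windows of the same length, GCGTG in 28.2%, CACGTG in 6.02% and TGTTCT in 16.1%. The GC content was 44.0% in the Nr1i2 window and 53.2% in that of Nr1i3, against a median of 52.4%. No motif was common to the Nr1i2, Nr1i3 and Thrb windows. Ahr and Nr3c1 had no window.

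The transcripts listed for 1 gene had like values. The Nr1i2 transcripts NM_010936 and NM_001098404 were at 20.5 and 20.0 RPKM in oil and at 10.6 and 10.4 RPKM in CCl4. The 3 Nr1i3 transcripts lay between 18.6 and 18.9 RPKM in oil and between 9.57 and 9.60 RPKM in CCl4. Of Thrb, NM_001113417 went from 4.13 to 1.92 RPKM and NM_009380 from 3.60 to 1.66 RPKM. How reads shared by transcripts of 1 gene were assigned is not given in the sources used here, so a shift between isoforms cannot be read from such close values. In the GRCm38.p6 annotation Nr1i2 spans chr16:38248349-38294849, Nr1i3 spans chr1:171213934-171218845 and Thrb spans chr14:17659225-18040097. Nr1i3 overlaps Tomm40l, a gene of mitochondrial protein import, by 1044 bases, and the strand of counting is not given. Thrb overlaps the predicted gene LOC115488350 by 1663 bases. Tomm40l was at 10.5 RPKM in oil and 9.28 RPKM in CCl4, so its own level differed less between the libraries than that of Nr1i3.

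Rxra was the most abundant of the 8 receptors in both libraries, with 67.7 RPKM in oil and 59.1 RPKM in CCl4. Its log2 fold change was -0.19, with a counting interval of -0.30 to -0.09, and it was -0.50 with scaling to the median gene. Among the 49 nuclear receptors of the mouse it ranked 2 in oil and 1 in CCl4. Because its partners were lower, the excess of Rxra over them was larger in CCl4: its RPKM was 3.31 times that of Nr1i2 in oil and 5.57 times in CCl4, 3.58 and 6.17 times that of Nr1i3, and 16.4 and 30.8 times that of Thrb. Against Nr1h3 the excess was 1.23 times in oil and 1.08 times in CCl4. Rxra spans chr2:27676445-27763319, and 1 transcript, NM_011305, was listed.

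Nr1h3 had nearly the same level in both libraries, 54.9 RPKM in oil and 54.8 RPKM in CCl4. The log2 fold change was -0.0033, with a counting interval of -0.089 to 0.082. The second transcript, NM_013839, was at 50.9 RPKM in both. Scaled to the median gene the change of Nr1h3 was -0.31, so that the closeness of its 2 values holds for the RPKM as deposited. Nr1h3 spans chr2:91184061-91202829 and overlaps the snRNA gene Gm23390 by 104 bases and the acid phosphatase gene Acp2 by 18 bases.

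Nr3c1 was slightly higher in CCl4, with 12.8 RPKM in oil and 14.3 RPKM in CCl4. Its log2 fold change of 0.16 had a counting interval of -0.029 to 0.35, which rests on lower bounds of the reads and may be too wide. The fold change became -0.14 when the libraries were scaled to the median gene, so its direction is not settled across the scalings. The gene lies on chromosome 18 from 39410545 to 39519421. Its relative Nr3c2, the mineralocorticoid receptor, was at 2.05 RPKM in oil and 1.28 RPKM in CCl4, and Nr3c1 thus exceeded it 6.21 times and 11.2 times.

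The partners of the AhR heterodimer differed in opposite directions in the RPKM as deposited and with scaling to the median gene, but both were higher in CCl4 with the hepatocyte scaling given below. Ahr was at 10.2 RPKM in oil and 7.20 RPKM in CCl4, a log2 fold change of -0.49 with a counting interval of -0.70 to -0.30. Arnt was at 4.19 RPKM in oil and 6.02 RPKM in CCl4, a log2 fold change of 0.51 with an interval of 0.35 to 0.70. The RPKM of Ahr was thus 2.43 times that of Arnt in oil and 1.20 times in CCl4. Neither gene reached a change of 1, and 64.1% of all genes had a lower log2 fold change than Arnt, as the median gene was higher too. Scaled to the median gene Ahr was at -0.79 and Arnt at 0.22. Ahr spans chr12:35497979-35534989 and Arnt chr3:95434367-95497240.

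**Figure D2:**
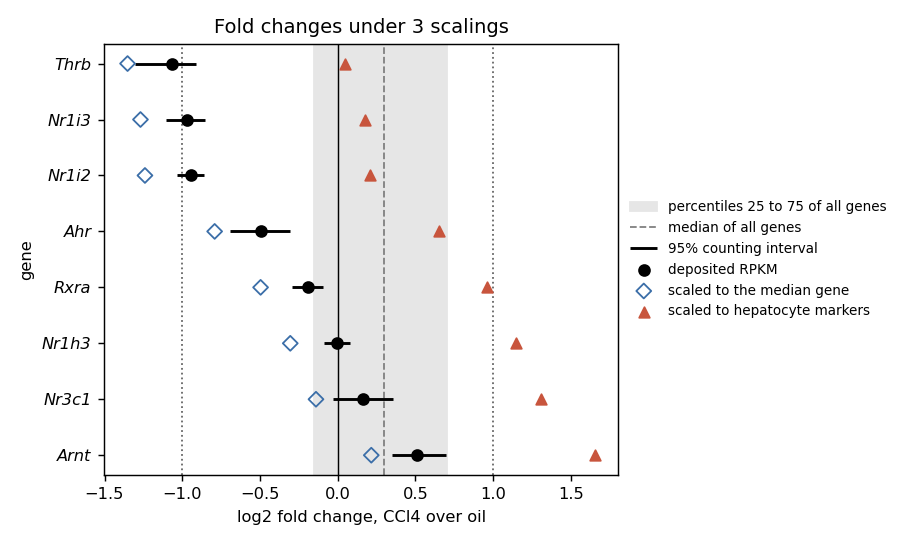
Log2 fold change of each receptor (CCl4 over oil) from the deposited RPKM with 0.1 RPKM added (black circles), scaled to the median gene (diamonds) and scaled to the hepatocyte marker list (triangles). Bars are 95% counting intervals of the read ratio, the grey band holds the middle part of all genes from percentile 25 to 75, the dashed line is their median, and dotted lines mark a change of 1. By the deposited values Nr1i2, Nr1i3, Thrb, Ahr and, by a narrow margin, Rxra lie left of the band, and with hepatocyte scaling Nr1i2, Nr1i3 and Thrb lie near 0.

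Markers of several cell types moved along with these values. Of the hepatocyte markers, 8 of the 10 listed genes had at least 1 RPKM in both libraries and all 8 were lower in CCl4, with a median log2 fold change of -1.15 and a range of -2.33 to -0.42. By comparison, 32.2% of all genes had a lower log2 fold change than Nr1h3, which was at -0.0033. The hepatocyte list summed to 18553 RPKM in oil and 10335 RPKM in CCl4. Afp was listed at 0 in oil and at 4.21 RPKM in CCl4, and Tf had no matching transcript. Albumin (Alb), at 8656 and 6476 RPKM, was the most abundant gene of this list in both libraries. All 9 stellate cell and myofibroblast markers with a value in both libraries were higher by at least 1, against 14.3% of all genes, with a median of 3.40. With scaling to the median gene all 9 were again higher by at least 1, against 7.99%. The sum of the 10 stellate genes went from 77.0 to 902.8 RPKM, Pdgfrb being listed at 0 in oil. Of the Kupffer cell markers, 4 of 7 were higher by at least 1, against 14.3% of all genes, and 1 of 7 with scaling to the median gene, against 7.99%. Clec4f, a marker of resident Kupffer cells, was at 282.6 and 254.5 RPKM. Their list summed to 789.7 and 1499 RPKM, the sinusoidal endothelial list to 446.1 and 739.0 RPKM, the cholangiocyte list to 50.9 and 170.2 RPKM and the lymphocyte list to 14.4 and 31.4 RPKM. The cholangiocyte marker Sox9 and the lymphocyte markers Cd3e and Ncr1 were listed at 0 in both libraries. The part of these cells in the receptor values was not tested.

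Measured against the hepatocyte markers, none of the 8 receptors was lower in CCl4. With the libraries scaled so that the median hepatocyte marker did not change, Thrb was at 0.047, Nr1i3 at 0.18, Nr1i2 at 0.21 and Ahr at 0.65. Rxra was then at 0.96, Nr1h3 at 1.15, Nr3c1 at 1.31 and Arnt at 1.65. By this scaling 3 of the 8 receptors were called higher and 0 lower, against 74.3% and 0.515% of all genes. Scaling leaves the order of the 8 receptors as it was by construction, with Thrb, Nr1i3 and Nr1i2 at the low end. In a bulk library, fewer hepatocytes among the cells and less receptor RNA per hepatocyte cannot be told apart.

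The other nuclear receptors give the frame for these levels. Of 49 family genes, 31 had at least 1 RPKM in both libraries, 15 were listed at 0 in both, and Nr1h5, Nr2f1 and Esrrb were listed at 0 in oil only. Among the 31, 5 were higher and 5 lower by at least 1, with a median log2 fold change of 0.021 against 0.30 for all genes. Of all genes, 14.3% were higher and 5.48% lower. With scaling to the median gene the split was 1 higher and 9 lower, against 7.99% and 9.71% of all genes, and with hepatocyte scaling it was 17 higher and 0 lower, against 74.3% and 0.515%. The lower genes included Nr0b2 (SHP, a corepressor of bile acid signaling) at -2.07, Hnf4a (a master regulator of hepatocyte genes) at -1.57, the orphan receptor Rora at -1.01, and Thrb. In this order from the lowest, Thrb ranked 4, Nr1i3 ranked 7 and Nr1i2 ranked 8 of 31, with Ppara, the fatty acid sensor, next to them at -0.98. Hnf4a itself went from 148.9 to 50.1 RPKM, so that the RPKM of Nr1i2 was 0.137 times that of Hnf4a in oil and 0.212 times in CCl4. Hnf4a is also among the hepatocyte markers that set the hepatocyte scaling.

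Paralogs of 3 members were higher in CCl4 in the deposited values and under both scalings, whereas Thrb and Rxra were lower and Nr1h3 level in the deposited values. With hepatocyte scaling these 3 members were higher too, Thrb at 0.047, Rxra at 0.96 and Nr1h3 at 1.15. Nr3c2, the relative of Nr3c1 named above, was lower as deposited, at -0.65. Thra, the thyroid hormone receptor alpha, was at 3.61 RPKM in oil and 8.79 RPKM in CCl4, a log2 fold change of 1.26. Thra was thus 0.873 times as abundant as Thrb in oil and 4.58 times as abundant in CCl4. Thra overlaps Nr1d1 by 1075 bases, and Nr1d1, a circadian repressor, was also higher, at 1.39 and 2.84 RPKM, so reads of this pair may be shared. Nr1h2 (LXR beta) was at 13.4 and 19.7 RPKM, which lowered the ratio of Nr1h3 to Nr1h2 from 4.10 to 2.78. Rxrb was at 10.6 and 14.8 RPKM, and the ratio of Rxra to Rxrb went from 6.38 to 4.0. The receptors that were higher by at least 1 were Nr2f2 at 1.59, Thra, Rarg at 1.20, Rarb at 1.17 and Nr4a1 at 1.06, and with scaling to the median gene only 1 of these 5 stayed past the line. The stellate markers moved in the same direction, and their part was not tested.

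**Figure D3:**
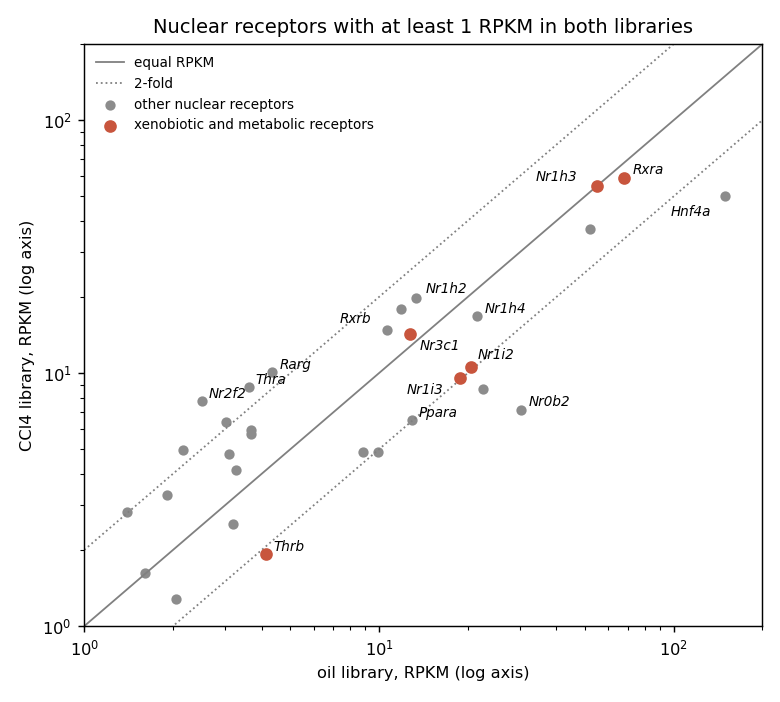
RPKM in the oil library (x, log axis) against the CCl4 library (y, log axis) for the 31 nuclear receptors with at least 1 RPKM in both. The solid line marks equal RPKM and the dotted lines a change of 2-fold; Rxra and Nr1h3 sit near the solid line at the upper right, and Nr1i2, Nr1i3 and Thrb sit at the lower dotted line.

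Likeness among the receptors was measured as the distance of their 2 log2 levels over 36 other family genes. Nr1i2 and Nr1i3 were each nearest to the other (0.184), as were Rxra and Nr1h3 (0.319). Ahr was nearest to Ppara, Arnt to Rara, Nr3c1 to Rxrb and Thrb to Esr1. With 2 libraries this says only that the levels lie close.

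Of the bHLH-PAS family, 6 of 16 genes had at least 1 RPKM in both libraries and the other 10 were listed at 0 in both, among them Ahrr, the AhR repressor, and Arnt2. As deposited and with scaling to the median gene 0 of the 6 reached a change of 1, where 5.48% of all genes were lower and 14.3% higher as deposited, and with hepatocyte scaling 4 of 6 were higher, against 74.3% of all genes. Ahr and Arnt were the lowest and the highest of the 6. The other Arnt partners Hif1a, at 6.99 and 9.18 RPKM, and Epas1, at 18.8 and 24.6 RPKM, were nearer to the median of all genes, each with a log2 fold change of 0.39.

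Genes that PXR and CAR are known to induce did not move as a block. Of 16 targets, 15 had a value in both libraries, 5 were lower and 2 higher by at least 1, and the median log2 fold change was -0.61 against 0.30 for all genes, of which 5.48% were lower and 14.3% higher. With scaling to the median gene 7 were lower and 1 higher, against 9.71% and 7.99% of all genes. With hepatocyte scaling 0 were lower and 6 higher, with a median of 0.54, against 0.515% and 74.3% of all genes. Cyp2c29, a drug-metabolizing P450, went from 312.8 to 93.6 RPKM, and Alas1, which starts heme synthesis, from 97.5 to 27.0 RPKM. The carboxylesterases Ces2a and Ces2c were at -1.62 and -2.05. Cyp3a11, the classic PXR target, was at 424.7 and 316.4 RPKM, a log2 fold change of -0.42. In contrast, Cyp2b10, the classic CAR target, was low in both libraries and higher in CCl4, with 2.08 and 8.23 RPKM (log2 fold change 1.93), and Cyp2c55 was at 1.404 and 3.26 RPKM. The reductase Por, which hands electrons to all microsomal P450 enzymes, was at 51.4 and 53.1 RPKM. Several of these genes (Cyp2b10, Cyp2c29, Cyp3a11, Ces2a, Aldh1a1, Aldh1a7) have close copies, and Ugt1a1 shares exons with Ugt1a6a, so their reads may be split or shared.

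Of the AhR targets measured, 4 of 5 were lower in CCl4 as deposited and with scaling to the median gene. With scaling to hepatocyte markers 1 of 5 was lower. Thrb was at 0.047 with that scaling, and 4.91% of all genes had a lower deposited log2 fold change than Thrb. For scale, 32.2% of all genes had a lower deposited log2 fold change than Nr1h3, which was at -0.0033. Median scaling puts the median gene near 0 by construction. The AhR target list has 8 genes. By at least 1 on the log2 scale there was 1 lower and 1 higher, with a median of -0.65. Of all genes, 5.48% were lower and 14.3% higher by this measure. With scaling to the median gene 2 were lower and 1 higher, against 9.71% and 7.99% of all genes. Cyp1a2 went from 158.8 to 67.4 RPKM, a log2 fold change of -1.24, whereas Cyp1a1, the target that responds most to AhR ligands, stayed at 1.47 and 1.29 RPKM. Nqo1, a quinone reductase that also answers to the oxidative stress factor Nrf2, was at 1.42 and 4.24 RPKM. Tiparp, which restrains AhR, was at 6.18 and 3.91 RPKM. Cyp1b1 was listed at 0 in oil and at 1.87 RPKM in CCl4.

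Targets of LXR were also spread to both sides in the deposited values, while Nr1h3 was level. All 14 genes had a value in both libraries, 5 were higher and 2 lower by at least 1, against 14.3% and 5.48% of all genes, and the median was 0.18. The canalicular sterol transporters Abcg5 and Abcg8 were at -1.30 and -1.51. Lpl (lipoprotein lipase) was at 10.6 and 49.9 RPKM, Abcg1 at 8.81 and 25.9 RPKM, and Cyp7a1, the rate-limiting enzyme of bile acid synthesis, at 4.74 and 19.2 RPKM. Mylip, which degrades the LDL receptor, and Pltp were at 1.09 and 1.12. Of the lipogenic genes, Srebf1, Fasn and Acaca lay from -0.035 to 0.25, whereas Scd1, the most abundant of them, was at 917.2 and 713.0 RPKM with a log2 fold change of -0.36. Apoe was at 11926 and 12521 RPKM. With scaling to the median gene 3 were higher and 2 lower, against 7.99% and 9.71% of all genes, and with hepatocyte scaling 11 were higher and 0 lower, a share close to the 74.3% of all genes that were then higher. Lpl and Abcg1 are also expressed by macrophages and stellate cells, whose marker sums were higher in CCl4 as given above, and the part of those cells was not tested.

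All 5 thyroid hormone targets with a value in both libraries were lower in CCl4 as deposited and with median scaling. With hepatocyte scaling 2 of 5 were lower. Thrb was at 0.047 with that scaling, and 4.91% of all genes had a lower deposited log2 fold change than Thrb. For scale, 32.2% of all genes had a lower deposited log2 fold change than Nr1h3, which was at -0.0033. Median scaling puts the median gene near 0 by construction. By the deposited values 2 of the 5 targets were lower by at least 1, against 5.48% of all genes, with a median of -0.57. Dio1, the deiodinase that activates thyroid hormone in the liver, went from 39.2 to 6.74 RPKM, a log2 fold change of -2.52. Thrsp, a lipogenic protein, went from 476.5 to 193.1 RPKM. Me1, Klf9 and Gpd2 lay between -0.57 and -0.29, and Hr was listed at 0 in both.

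Glucocorticoid targets ranged from -3.00 to 0.67 on the log2 scale as deposited. Of 10 genes, 5 were lower and 0 higher by at least 1, with a median of -0.63, where 5.48% of all genes were lower. With hepatocyte scaling 1 was lower and 5 higher, with a median of 0.53, against 0.515% and 74.3% of all genes. The 5 lower ones were genes of amino acid and glucose metabolism and a secreted binding protein: Igfbp1 at -3.00, Pck1 at -2.09, Tat at -1.87, Tdo2 at -1.16 and G6pc at -1.14. Pck1, the entry enzyme of gluconeogenesis, went from 763.5 to 178.7 RPKM. Of the other 5 targets, Fkbp5 was at 26.5 and 24.5 RPKM, Tsc22d3 (GILZ) at 81.5 and 79.2 RPKM and Per1 at 4.95 and 5.31 RPKM. Sgk1 was at 36.04 and 57.3 RPKM and Dusp1 at 51.7 and 67.2 RPKM.

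**Figure D4:**
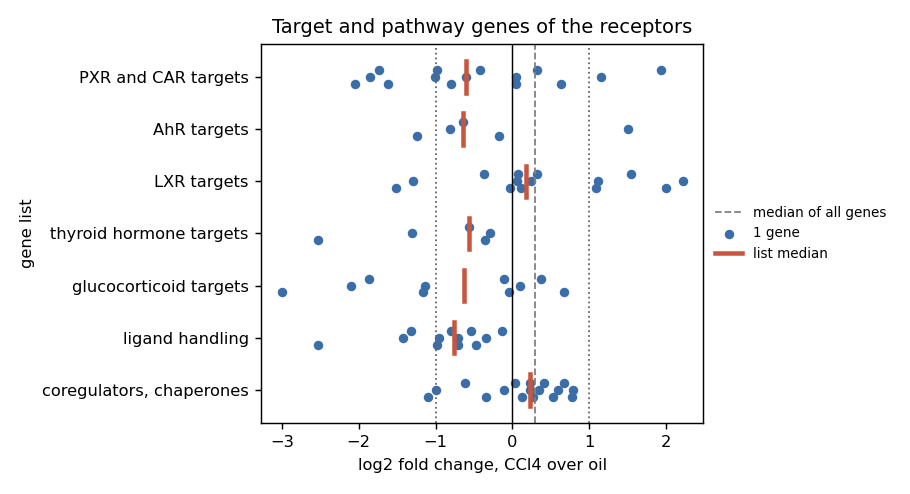
Log2 fold change (CCl4 over oil, x axis) of the genes of each list with at least 1 RPKM in both libraries. Each point is 1 gene, the red bar is the list median, the dashed line is the median of all genes and dotted lines mark a change of 1. The medians of the PXR and CAR, AhR, thyroid hormone, glucocorticoid and ligand handling lists lie left of 0, and those of the LXR list and of the coregulators lie right of 0.

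Genes that make, activate, carry or degrade the ligands of these receptors were lower in 12 of 12 measured cases as deposited and with median scaling. With hepatocyte scaling 3 of 12 were lower. Thrb was at 0.047 with that scaling, and 4.91% of all genes had a lower deposited log2 fold change than Thrb. For scale, 32.2% of all genes had a lower deposited log2 fold change than Nr1h3, which was at -0.0033. Median scaling puts the median gene near 0 by construction. Of 16 genes, 12 had a value in both libraries, 3 of them lower by at least 1, against 5.48% of all genes, and the median was -0.75. With scaling to the median gene 8 were lower, against 9.71% of all genes. With hepatocyte scaling 1 was lower and 1 higher by at least 1, against 0.515% and 74.3% of all genes. Aldh1a2, which makes retinoic acid, was listed at 0 in oil and at 1.95 RPKM in CCl4. Hsd11b1, which regenerates active glucocorticoid, went from 166.4 to 85.6 RPKM, and H6pd, which supplies its cofactor, from 95.3 to 54.7 RPKM. Cyp27a1, which makes an oxysterol ligand of LXR, went from 157.0 to 62.8 RPKM. The thyroxine carrier Serpina7 had a log2 fold change of -1.42, and the cortisol carrier Serpina6 was at 25.7 and 17.6 RPKM. Dio1 and Aldh1a1 stand in this list as well as in a target list. Ttr stands in this list and among the hepatocyte markers that set the hepatocyte scaling, so the counts with that scaling are not fully independent of it.

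Coregulators were close to the median of all genes, and the chaperones named here were below it. Of 18 genes, 17 had a value in both libraries, 1 was lower and 0 higher by at least 1, against 5.48% and 14.3% of all genes, and the median was 0.23. The coactivators Ncoa1, Ncoa2 and Ncoa3 were at 0.23, 0.034 and 0.78, and the corepressor Ncor1 at 0.23. Fkbp4, an immunophilin of the glucocorticoid receptor complex, went from 87.8 to 41.0 RPKM, a log2 fold change of -1.09. Hsp90aa1, the inducible Hsp90 that holds AhR and the glucocorticoid receptor, went from 91.3 to 45.8 RPKM, just short of 1 at -0.996. With scaling to the median gene 2 of the 17 were called lower, against 9.71% of all genes, and with hepatocyte scaling 13 were called higher, a share close to the 74.3% of all genes.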

How the data were processed

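The authors deposited RPKM values for 27457 mRNA transcripts in 1 oil and 1 CCl4 hepatocyte library, with every value under 1 RPKM listed as 0. The submitters' processing notes name CASAVA 1.4, TopHat2 and the build mm10. The counting program is not given in the sources used here. The authors' log2 changes, p-values and q-values in the same tables were not used. The read counts deposited for unannotated lncRNAs served only to check the read recovery below. RefSeq identifiers were matched to symbols through a GRCm38.p6 gene table (27045 transcripts), and the transcript of highest average RPKM stood for its gene. Of 20313 genes, 10686 had at least 1 RPKM in both libraries and 1323 in 1 library only. Genes listed at 0 in a library got no fold change.

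Depth was recovered from the RPKM steps of single-transcript RefSeq genes under 400 bases: 57992355 reads for oil (whole reads within 0.05 in 170 of 174 genes) and 64655340 for CCl4 (181 of 186). The shortest transcript length giving whole reads in both libraries gave lower bounds on reads. On 1397 lncRNAs with deposited counts these bounds were equal in 68.5% and above in 0. The functions were tested on simulated data.

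No test was made with 1 library per condition. Members and gene lists were chosen with earlier results of these data known. All members are named, and list genes are named with the count of their list. Some list genes are not reported here. Alternatives were pseudocounts of 0 and 1 RPKM, 2 scalings, summed transcripts, a filter at a mean of 5 RPKM and a threshold of 0.58. Scaling to hepatocyte markers was chosen after seeing the data. Python 3.11.15, numpy 2.4.6, pandas 2.3.3, scipy 1.17.1 and matplotlib 3.10.9 were used.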

Additional observations from a re-analysis of the deposited data

How the results depend on the processing

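Among the values of the 8 receptors and the counts past the threshold, 49 were labelled close to the reported value under the alternatives. Another 30 were labelled moved and 1 reversed, which was Thrb with hepatocyte scaling. Other sign changes, given next, stand among those labelled moved. Each fold change labelled close lay inside its counting interval. For counts the label was wider, as all genes higher went from 1527 to 1077 with a pseudocount of 1 RPKM and was labelled close. Of the 8 fold changes, 6 changed sign with scaling to the hepatocyte markers, 1 (Nr3c1) with scaling to the median gene and 0 under the other alternatives. Scaled to the median gene, the log2 fold changes were -1.24 for Nr1i2, -1.27 for Nr1i3, -0.79 for Ahr, 0.22 for Arnt, -0.50 for Rxra, -0.31 for Nr1h3, -1.35 for Thrb and -0.14 for Nr3c1. Scaled to the hepatocyte markers, a choice made after seeing the data, they were 0.21, 0.18, 0.65, 1.65, 0.96, 1.15, 0.047 and 1.31 in the same order, so that Nr1i2, Nr1i3, Ahr, Rxra, Nr1h3 and Thrb went from lower to higher in CCl4. With a pseudocount of 1 RPKM Thrb was at -0.81.

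The count of receptors lower by at least 1 was 1 as reported, 0 with a pseudocount of 1 RPKM, with hepatocyte scaling and with a mean of at least 5 RPKM (which leaves out Thrb), 2 with the 10 most abundant mRNAs left out of the library size, and 3 with median scaling or a threshold of 0.58. With hepatocyte scaling 3 were higher. Of all genes, 1038 were lower and 854 higher with median scaling, 1292 and 3394 at a threshold of 0.58, and 55 and 7936 with hepatocyte scaling, while 951 were higher with a mean of at least 5 RPKM. A lower threshold and a stricter filter change these counts by construction.

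The medians of 5 of the 9 target and pathway lists turned from below to above 0 with hepatocyte scaling: PXR and CAR targets from -0.61 to 0.54, AhR targets from -0.65 to 0.48, thyroid hormone targets from -0.57 to 0.58, glucocorticoid targets from -0.63 to 0.53 and ligand handling from -0.75 to 0.39. With median scaling 4 turned below 0, the LXR targets to -0.12, the nuclear receptors to -0.26, the bHLH-PAS family to -0.14 and the coregulators to -0.066. The nuclear receptor median, close to 0 as reported, also changed sign with the 10 most abundant mRNAs left out and with the filter at a mean of 5 RPKM. No paired analysis was possible because each condition has 1 library, which also leaves no replicate to omit. Genes under 1 RPKM, such as Ahrr and Hr, are listed at 0 in the deposited table and cannot be compared.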
